A study of Mus musculus with 54 samples.

Results

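The 10 genes described here take part in the ovarian response to the surge of luteinizing hormone (LH) that leads to ovulation. They are Areg, Ereg, Btc, Pgr, Runx1, Runx2, Adamts1, Has2, Tnfaip6 and Ptx3. They were picked by gene symbol and make up 10 of the 26264 gene rows in the count tables of mouse ovary and testis. The study measured RNA in 54 libraries, 18 groups of 3, to ask whether low doses of a pharmaceutical cocktail in drinking water change gene expression in the gonads of exposed F1 animals and of F2 animals bred from them. Ovaries were taken at 30 days post partum and testes at 35. The F1 control group drank water with 0.001% ethanol. At F1 dose 1 the water carried 17a-ethinyl-estradiol at 2.25 ng/L, diclofenac at 22.5 ng/L, ibuprofen at 11.3 ng/L and 2-hydroxyibuprofen at 90 ng/L. At F1 dose 2 it carried 17a-ethinyl-estradiol at 45 ng/L, diclofenac at 112 ng/L, ibuprofen at 113 ng/L and 2-hydroxyibuprofen at 225 ng/L. Exposure began at 8.5 days post coitum in the pregnant mother. F2 animals are described by the groups of their parents, and no dose of their own is given. The maternal dose 1 and maternal dose 2 crosses had an exposed mother and a control father. The paternal dose 1 and paternal dose 2 crosses had an exposed father and a control mother. Father and mother were both from dose 2 in the biparental dose 2 cross, and both from the control group in the control cross. The labels give neither the strain nor the number of animals or litters behind a library, so p-values measure the spread between these libraries, which may in part be technical. No hormone treatment to bring on ovulation is mentioned.

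In the ovary the LH surge acts on the mural granulosa cells of the preovulatory follicle, which carry the LH receptor. These cells then release the EGF-like growth factors amphiregulin (Areg), epiregulin (Ereg) and betacellulin (Btc), which bind the EGF receptor on granulosa and cumulus cells and pass the signal on to the cumulus cells around the oocyte. The surge also brings on transcription factors, among them the progesterone receptor (Pgr), without which mouse follicles do not rupture, and the RUNX factors Runx1 and Runx2. Cumulus cells answer by laying down a hyaluronan matrix. Has2 makes the hyaluronan, Tnfaip6 and Ptx3 encode proteins that cross-link and stabilise it, and Adamts1 is a secreted protease that cleaves versican in that matrix and is a known target of the progesterone receptor. Ovaries hold follicles of many stages, and several of these genes are also active outside the preovulatory follicle.

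Promoter sequences are shown for the members on which the results below turn. RefSeq promoters of mouse build GRCm38.p6, 250 bases before and 50 bases after an annotated start site, were found for 8 of the 10 members (9 promoters). The counts themselves were made on mm39, so these coordinates belong to the promoters only. Capitals mark every match, on either strand, of the searched motifs: the cAMP response element TGACGTCA and its core TGACG, the RUNX motif TGTGGT, the AP-1 motif TGANTCA, the GC box GGGCGG, the TATA box TATAAA, the E box CACGTG and the steroid half-element TGTTCT. The core is part of the full cAMP response element, so the 2 overlap. The Areg stretch at chr5:91139529-91139579 on the + strand, from 70 to 20 bases before the start site, was chosen because it holds a full cAMP response element, the motif through which cAMP signalling is known to reach promoters.
Areg: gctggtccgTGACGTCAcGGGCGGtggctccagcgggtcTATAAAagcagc
Of 32851 mouse promoters of this length, 588 (1.8%) held the full element, and among the members it was found in the Areg promoter. The Runx1 stretch at chr16:92826025-92826054 and the Runx2 stretch at chr17:44814578-44814607, both on the - strand and from 21 to 50 bases after the start site, are shown because each carries a pair of RUNX matches set close together.
Runx1: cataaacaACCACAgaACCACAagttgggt
Runx2: acaACCACAgaACCACAagtgcggtgcaaa
A RUNX match was present in 16.8% of all promoters. The other Runx1 promoter, at chr16:92697280-92697579 on the - strand, held no match of the searched motifs. The whole promoters of Adamts1 (chr16:85803064-85803363, - strand), Pgr (chr9:8899583-8899882, + strand) and Ptx3 (chr3:66219637-66219936, + strand) are shown because the comparisons of F2 crosses turn on Adamts1, and the one relation among members that passed its test joined Ptx3 and Pgr.
Adamts1: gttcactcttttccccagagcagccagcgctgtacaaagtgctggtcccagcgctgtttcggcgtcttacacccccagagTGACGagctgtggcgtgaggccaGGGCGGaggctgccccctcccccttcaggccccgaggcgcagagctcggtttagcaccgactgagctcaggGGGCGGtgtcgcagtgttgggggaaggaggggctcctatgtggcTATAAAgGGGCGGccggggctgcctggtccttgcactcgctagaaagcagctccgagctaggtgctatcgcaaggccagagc
Pgr: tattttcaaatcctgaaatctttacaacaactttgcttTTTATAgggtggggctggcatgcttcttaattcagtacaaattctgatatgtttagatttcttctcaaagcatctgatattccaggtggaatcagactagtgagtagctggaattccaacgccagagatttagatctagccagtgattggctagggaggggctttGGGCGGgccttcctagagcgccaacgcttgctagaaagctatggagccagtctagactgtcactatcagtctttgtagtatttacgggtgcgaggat
Ptx3: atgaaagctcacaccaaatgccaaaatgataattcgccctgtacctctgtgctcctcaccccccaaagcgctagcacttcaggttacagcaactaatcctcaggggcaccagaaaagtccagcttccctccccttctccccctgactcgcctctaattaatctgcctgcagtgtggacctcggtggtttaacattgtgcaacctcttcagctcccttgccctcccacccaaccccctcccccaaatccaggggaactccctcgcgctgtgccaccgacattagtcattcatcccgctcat
The Adamts1 promoter held a TATA box 32 bases before the start site, 3 GC boxes and a core cAMP element. Pgr held a GC box and a TATA match on the reverse strand far from the start, and Ptx3 held no match. GC boxes occurred in 35.7% of all promoters, core cAMP elements in 20.8% and TATA boxes in 13.6%.

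Total counts per library were 36.6 to 57.4 M (M for mega) in F1 ovary and 37.9 to 84.7 M in F2 ovary, and 31.8 to 122.4 M in F1 testis and 31.6 to 48.2 M in F2 testis. The labelled tissues carried their defining markers. Summed granulosa markers were at 5929 to 12413 CPM in ovaries, where CPM is counts per M counts after scaling of the libraries, and at 355 to 608 CPM in testes. Summed male germ cell markers were at 7289 to 28492 CPM in testes. The same male markers were at 1118 CPM in F1 ovary control A and at 11.7 to 102 CPM in the other 26 ovary libraries. Control A stood apart from the other ovary libraries on the main principal component, and F2 maternal dose 1 C and F2 biparental dose 2 C stood apart on later ones. Biparental dose 2 C also had the highest summed macrophage markers of the F2 ovaries, at 1053 CPM.

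Across the 27 ovary libraries the protease gene Adamts1 had the highest level of the 10 and the growth factor gene Areg the lowest. Set per kilobase of exon, on GENCODE gene models of GRCm38, Adamts1 averaged 8.51 CPM/kb over the 27 libraries. Ptx3 followed at 2.75, Runx1 at 2.21, Tnfaip6 at 0.894, Runx2 at 0.673, Btc at 0.412, Pgr at 0.309, Ereg at 0.272, Has2 at 0.150 and Areg at 0.0608 CPM/kb. The ranges of Adamts1 (6.33 to 13.5 CPM/kb) and Ptx3 (1.72 to 4.2 CPM/kb) did not overlap, nor did those of Runx1 (1.64 to 3.27 CPM/kb) and Tnfaip6 (0.643 to 1.33 CPM/kb). Every other pair of neighbours in this order overlapped between libraries. The matrix group was thus split, with Adamts1 and Ptx3 at the top of the list and the hyaluronan synthase gene Has2 near the bottom.

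Areg was close to the limit of detection. Its counts were 0 to 15 per ovary library, and 7 of 27 ovary libraries had none, where 3 counts would correspond to at most 0.0819 CPM. The libraries with the most Areg were biparental dose 2 C at 0.356 CPM (15 counts), F1 control C at 0.263 CPM (12 counts) and F1 dose 2 A at 0.255 CPM (11 counts). These 3 libraries came from 3 different groups, and their group mates lay at 0 to 0.197 CPM. Ereg, encoded beside Areg in the mouse genome, was detected in every ovary library at 0.440 to 2.05 CPM with a median of 1.08. Btc was at 1.03 to 2.70 CPM with a median of 1.72.

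The levels of the 2 RUNX genes and of Pgr spread differently. Runx1 was steady, at 19.7 to 39.3 CPM with a coefficient of variation of 16.8% over the 27 libraries, while Pgr ranged from 1.45 to 5.15 CPM with 34.2%. Runx2 was at 3.55 to 11.1 CPM. In the matrix group, Has2 varied most, from 0.230 to 1.29 CPM (coefficient of variation 43.3%), on counts of 10 to 64 per library. Tnfaip6 varied by 19.1% (1.10 to 2.28 CPM), Adamts1 by 20.6% (33.6 to 71.5 CPM) and Ptx3 by 25.9% (4.62 to 11.3 CPM). Genes with few counts carry more counting error, so these spreads are not on an equal footing.

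Other genes of the pathway were measured in the same ovaries. The LH receptor gene Lhcgr was at 52.4 to 443 CPM, the EGF receptor gene Egfr at 45.4 to 115 CPM and Vcan, which encodes the versican cut by Adamts1, at 83.8 to 237 CPM. Cbfb, the shared partner of the RUNX proteins, was at 88.1 to 132 CPM. Ptgs2, the inducible prostaglandin synthase that the LH surge is known to bring on, was at 0 to 1.47 CPM with a median of 0.235. The receptors and the matrix substrate were therefore abundant in these ovaries, while Ptgs2, like Areg, stayed close to 0 in most libraries.

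**Figure D1:**
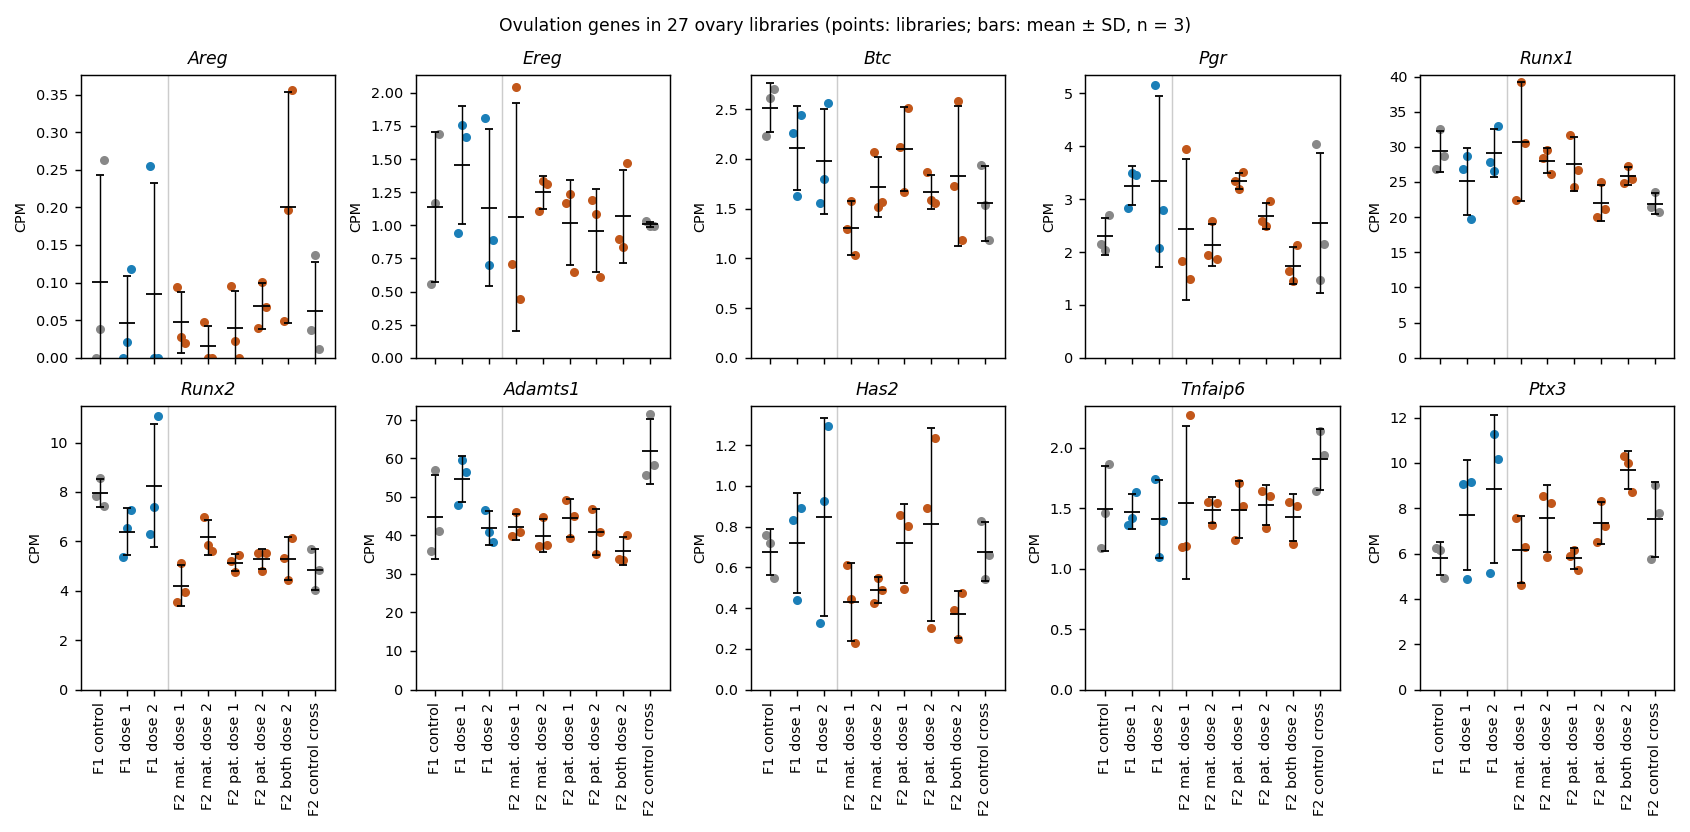
Levels in CPM (vertical axes, each starting at 0) of the 10 genes in the 9 ovary groups, with 1 point per library and the mean ± SD of 3 libraries as bars; F1 groups in grey and blue stand left of the line, F2 crosses with an exposed parent in orange and the F2 control cross in grey right of it. Adamts1 lies at 55.7 to 71.5 CPM in the F2 control cross and at 33.6 to 49.2 CPM in the other F2 crosses, while most other genes overlap between groups.

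The ovary was compared with the testis in unexposed animals, 6 libraries of each tissue. Of the 9 members tested, 8 were higher in ovary and Runx2 was lower. This comparison called 90.3% of all 20167 genes tested, 45.1% higher and 45.2% lower in ovary, so a call by itself says little about the members. Ereg, Btc, Pgr and Has2 did not reach the count filter in fits of testis alone and entered this comparison through their ovary counts, so their direction was set by the filter. Areg was below the count filter and was not tested. In bulk samples such as these, fewer cells of a type and less RNA per cell cannot be told apart.

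Adamts1 was at 33.6 to 71.5 CPM in the 27 ovary libraries and at 2.83 to 5.19 CPM in the 27 testis libraries, each scaled within its tissue. In the unexposed libraries it was higher in ovary by 3.58 on the log2 scale (SE 0.12, edgeR adjusted p = 1.1e-09). Runx1 was at 19.7 to 39.3 CPM in ovary and at 0.625 to 2.21 CPM in testis, a log2 change of 3.92 (SE 0.20). Ptx3 was at 4.62 to 11.3 CPM in ovary and at 0.0441 to 0.516 CPM in testis, a log2 change of 4.77 (SE 0.48). No ovary library overlapped a testis library for these 3 genes. Among the unexposed libraries alone, 38.6% of all genes tested lay wholly higher in ovary.

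Btc, with 1.03 to 2.70 CPM in ovary and 0.0252 to 0.335 CPM in testis, was higher in unexposed ovary by 3.57 on the log2 scale (SE 0.29). Ereg was at 0.440 to 2.05 CPM in ovary and at 0 to 0.181 CPM in testis, and was higher by 2.92 (SE 0.46). Tnfaip6 showed the smallest call, at 1.10 to 2.28 CPM in ovary and 0.180 to 1.09 CPM in testis, with a log2 change of 0.86 (SE 0.23, edgeR adjusted p = 0.00493). Pgr and Has2 were nearly silent in testis. Pgr was at 1.45 to 5.15 CPM in ovary, while testis libraries had 0 to 5 counts each and 14 of 27 had none. Has2 was at 0.230 to 1.29 CPM in ovary, with 0 to 3 counts in each testis library and again 14 of 27 at 0. Their log2 changes of 5.44 (Pgr) and 5.89 (Has2) rest on 10 and 4 counts summed over the 6 unexposed testis libraries and depend on the prior count of the fit.

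Runx2 went the other way. It was at 3.55 to 11.1 CPM in ovary and 5.17 to 13.3 CPM in testis, and in unexposed animals it was lower in ovary by 0.88 on the log2 scale (log2 change -0.88, SE 0.14, edgeR adjusted p = 0.00011). On the CPM of each tissue, F2 ovaries had 3.55 to 6.98 CPM and F2 testes 8.36 to 13.3 CPM, without overlap. In F1 the mean was 7.54 CPM in both tissues, with 5.36 to 11.1 CPM in ovaries and 5.17 to 9.59 CPM in testes. F1 controls averaged 7.95 CPM in ovary and 7.56 CPM in testis. These CPM were scaled within each tissue and do not share a scale between tissues. Scaled together, the unexposed libraries of both generations averaged 5.69 CPM in ovary and 10.1 CPM in testis. Whether Runx2 was lower in ovary within F1 alone can therefore not be read from the CPM of each tissue. The difference between generations was not tested. Among the other listed genes, the 8 of lowest p were all higher in ovary: Vcan, Esr2, Vegfa, Nr5a1, Esam, Pparg, Inha and Cbfa2t3. Vcan, the substrate of Adamts1, averaged 161 CPM in unexposed ovary and 1.81 CPM in unexposed testis, a log2 change of 6.45 (SE 0.12, edgeR adjusted p = 1.2e-10).

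**Figure D2:**
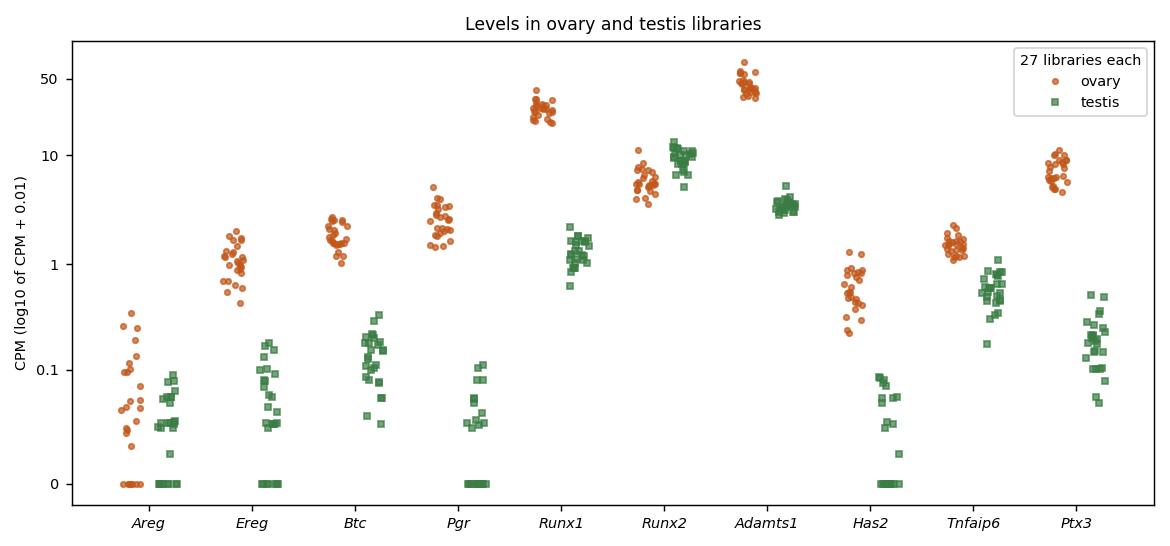
Level of each gene (vertical axis, CPM on a log10 scale after adding 0.01, so that 0 can be drawn) in the 27 ovary libraries (orange circles) and the 27 testis libraries (green squares), scaled within each tissue. Runx1, Adamts1, Ptx3, Btc, Ereg, Pgr and Has2 separate with ovary above testis, Runx2 lies higher in most testes, and Areg and Tnfaip6 come close together or overlap. Among the unexposed libraries alone, 38.6% of all genes tested lay wholly higher in ovary.

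In F1 ovaries the cocktail was not followed by a called difference in any member. The fit over the 9 F1 ovary libraries tested 17896 genes and called 0 of them (0%) for dose 1 against control, dose 2 against control and dose 2 against dose 1. At an unadjusted p under 0.05 there were 1490 (8.33%), 671 (3.75%) and 1077 (6.02%) genes in the same order, again with no member, and DESeq2 called 26, 8 and 54 genes, no member among them. No member separated fully at dose 2 from control, where 7.91% of genes did (4.12% higher and 3.79% lower). Areg fell below the filter, so 9 members were tested.

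Among the ligand genes, Ereg was at 0.558, 1.17 and 1.69 CPM in F1 controls, at 0.942, 1.75 and 1.67 CPM at dose 1 and at 1.81, 0.700 and 0.888 CPM at dose 2. The spread within each group was as wide as the spread between groups, and the log2 change at dose 1 against control had a 95% interval of -0.79 to 1.48. Btc averaged 2.51 ± 0.247 CPM in controls, 2.11 ± 0.426 CPM at dose 1 and 1.97 ± 0.526 CPM at dose 2 (SD, n = 3 each). Its groups overlapped, with log2 changes against control of -0.27 (95% interval -0.88 to 0.34) at dose 1 and -0.35 (-0.96 to 0.26) at dose 2.

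Among the transcription factor genes, Pgr was at 2.16, 2.04 and 2.70 CPM in F1 controls, at 2.82, 3.49 and 3.45 CPM at dose 1 and at 5.15, 2.08 and 2.79 CPM at dose 2. The dose 1 libraries all lay above the controls, as did those of 5.54% of all genes tested, and the log2 change of 0.48 (SE 0.34, edgeR adjusted p = 0.667) did not pass. At dose 2 a single library, A, lay far above the controls. Runx2 was at 7.84, 8.58 and 7.44 CPM in controls, at 5.36, 6.56 and 7.27 CPM at dose 1 and at 6.32, 7.38 and 11.1 CPM at dose 2. Here the dose 1 libraries all lay below the controls, as in 5.5% of all genes, with a log2 change of -0.33 (SE 0.23, edgeR adjusted p = 0.659). Runx1 averaged 29.3 ± 2.89 CPM in controls, 25.1 ± 4.73 CPM at dose 1 and 29.1 ± 3.38 CPM at dose 2, and its groups overlapped.

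Among the matrix genes, Adamts1 was at 36.03, 56.9 and 41.1 CPM in F1 controls, at 47.8, 59.5 and 56.3 CPM at dose 1 and at 46.6, 40.8 and 38.2 CPM at dose 2. The controls spanned both doses, while the dose 2 libraries all lay below the dose 1 libraries, as in 7.46% of all genes. That difference was -0.36 on the log2 scale (SE 0.16, unadjusted p = 0.0526, edgeR adjusted p = 0.809). Ptx3 was at 6.27, 6.15 and 4.94 CPM in controls, at 9.09, 4.89 and 9.14 CPM at dose 1 and at 5.13, 11.3 and 10.2 CPM at dose 2. At dose 1 a single library lay below the controls and the others above them, at dose 2 a single library lay among the controls and the others above them, and the log2 changes of 0.39 (95% interval -0.37 to 1.16) and 0.61 (-0.16 to 1.37) did not pass. Has2 spread from 0.325 to 1.29 CPM at dose 2 alone. Tnfaip6 averaged 1.5 ± 0.351 CPM in controls, 1.47 ± 0.144 CPM at dose 1 and 1.41 ± 0.321 CPM at dose 2. Its 95% intervals against control were -0.67 to 0.59 at dose 1 and -0.71 to 0.55 at dose 2 on the log2 scale.

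In F2 ovaries, Adamts1 stood out from the other members by the distance between the control cross and the 5 crosses with an exposed parent. It was at 39.8, 46.0 and 40.8 CPM in the maternal dose 1 cross, 37.3, 44.9 and 37.5 CPM in the maternal dose 2 cross and 49.2, 39.4 and 44.9 CPM in the paternal dose 1 cross. The paternal dose 2 cross had 46.8, 35.1 and 40.8 CPM and the biparental dose 2 cross 33.9, 33.6 and 40.1 CPM. The control cross had 55.7, 71.5 and 58.2 CPM. All 15 libraries with an exposed parent (33.6 to 49.2 CPM) therefore lay below all 3 control libraries. No comparison of a single cross passed with edgeR, and the 5 comparisons share the same 3 control libraries.

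Against the control cross the log2 change of Adamts1 was -0.55 for maternal dose 1 (SE 0.13, unadjusted p = 0.00071, edgeR adjusted p = 0.351) and -0.63 for maternal dose 2 (SE 0.13, unadjusted p = 0.00022, edgeR adjusted p = 0.535). It was -0.47 for paternal dose 1 (SE 0.13, unadjusted p = 0.0028, edgeR adjusted p = 0.536) and -0.59 for paternal dose 2 (SE 0.13, unadjusted p = 0.0004, edgeR adjusted p = 0.622). In the biparental dose 2 cross it was -0.78 (SE 0.13, 95% interval -1.06 to -0.50), the lowest unadjusted p of the 17400 genes tested (2.4e-05), with an edgeR adjusted p of 0.400. DESeq2, by contrast, called Adamts1 in 3 of these comparisons, with adjusted p = 0.0481 (maternal dose 1), 0.0323 (maternal dose 2) and 0.000464 (biparental dose 2), and not in the paternal dose 1 (0.206) and paternal dose 2 (0.0759) crosses. The call on Adamts1 thus depended on the tool, while its direction was the same in every alternative run.

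Few genes were called in these comparisons at all. Among 17400 genes edgeR called 0 (0%) in the maternal dose 1, maternal dose 2, paternal dose 2 and biparental dose 2 crosses, and 1 (0.00575%), no member, in the paternal dose 1 cross. At an unadjusted p under 0.05 there were 2280 genes (13.1%) in maternal dose 1, 1044 (6%) in maternal dose 2, 864 (4.97%) in paternal dose 1, 664 (3.82%) in paternal dose 2 and 1566 (9%) in biparental dose 2, and DESeq2 called 40, 15, 21, 6 and 21 genes in the same order. Exposed libraries lay wholly below the control cross in 4.82% of genes in maternal dose 1, 6.02% in maternal dose 2, 6.4% in paternal dose 1, 5.09% in paternal dose 2 and 7.6% in biparental dose 2. In the maternal dose 1 cross Adamts1 was the 1 member that did not overlap with the control cross, where 9.29% of genes did not (4.48% higher).

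A contrast of all 5 exposed-parent crosses against the control cross was added after Adamts1 had been seen. Adamts1 averaged 40.7 ± 4.82 CPM over the 15 exposed-parent libraries (SD, n = 15) and 61.8 ± 8.49 CPM in the control cross (SD, n = 3). Its log2 change was -0.60 (SE 0.10, 95% interval -0.81 to -0.40) with an edgeR adjusted p of 0.0575, just short of the threshold, while edgeR called 0 genes (0%), 1102 genes had an unadjusted p under 0.05 and DESeq2 called 10. All 15 libraries lay below the control cross in 39 of 17400 genes (0.224%), Adamts1 among them. Over 23 alternatives the log2 change ran from -0.68 to -0.49 and the adjusted p from 0.000676 to 0.334. The smallest change was that without control cross B, the highest library at 71.5 CPM (-0.49, edgeR adjusted p = 0.334). It passed without the low-count filter (edgeR adjusted p = 0.0411) and with DESeq2 (adjusted p = 0.000676).

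Ranges of depth and of summed markers of steroid-producing cells reached higher in the control cross than in the other F2 ovaries. Of these ranges, only those of the Leydig sums did not overlap, and the sums were not tested. Libraries with an exposed parent had 37.9 to 56.6 M counts, against 53.0 to 84.7 M in the control cross. Control libraries A, B and C had 54.8, 53.0 and 84.7 M counts and 55.7, 71.5 and 58.2 CPM Adamts1. The order of 3 libraries cannot separate depth from cross. Summed markers of Leydig-type steroid cells, which theca cells share in part, were at 1128 to 3342 CPM in the exposed-parent libraries and 3455 to 3971 CPM in the control cross, without overlap. Summed luteal markers were at 1594 to 3695 CPM in exposed-parent libraries and 3127 to 4212 CPM in the control cross, and summed theca markers at 5124 to 8158 CPM in exposed-parent libraries and 8088 to 8853 CPM in the control cross. In the pooled contrast 5 of 7 Leydig, 7 of 10 luteal and 10 of 10 theca markers were lower, none of them called, and none was at 0 in every ovary library. These lists share genes, so their counts and sums are not separate observations. The 5 lower Leydig markers, Insl3, Cyp17a1, Star, Cyp11a1 and Lhcgr, are all theca markers too, and Star, Cyp11a1 and Lhcgr are also luteal markers. The Leydig markers outside the theca list, Hsd3b6 and Hsd17b3, were not lower. Lhcgr, which is on the theca, luteal and Leydig lists, was at 52.4 to 325 CPM in exposed-parent libraries and at 172 to 443 CPM in the control cross, with a log2 change of -1.31 (SE 0.32, edgeR adjusted p = 0.530), and control cross B, the library of highest Adamts1, also had the highest Lhcgr of the 27. Of 12 granulosa markers, 6 had higher and 6 lower values. The part of depth and cell makeup in the Adamts1 values was not tested.

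Among the other matrix genes, Has2 was at 0.388, 0.246 and 0.474 CPM in the biparental dose 2 cross and at 0.829, 0.545 and 0.659 CPM in the control cross. These libraries did not overlap, and 7.6% of all genes lay wholly below the control cross in this comparison. On 10 to 55 counts each, the log2 change of -0.86 had a 95% interval of -1.83 to 0.11 (edgeR adjusted p = 0.590). In the paternal dose 2 cross Has2 ran from 0.302 to 1.24 CPM and covered the control cross on both sides. Tnfaip6 had group means between 1.42 and 1.55 CPM in the 5 exposed-parent crosses and 1.91 ± 0.252 CPM in the control cross. The log2 change of Tnfaip6 ran from -0.41 (SE 0.25, biparental dose 2) to -0.30 (SE 0.25, maternal dose 1), its lowest edgeR adjusted p was 0.562, and maternal dose 1 C was the highest of all 27 ovary libraries at 2.28 CPM. The maternal dose 2 libraries (1.36 to 1.55 CPM) and the biparental dose 2 libraries (1.2 to 1.55 CPM) lay below those of the control cross (1.64 to 2.14 CPM). So did 6.02% of all genes in maternal dose 2 and 7.6% in biparental dose 2.

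Ptx3 ran opposite to Adamts1 in the biparental dose 2 cross. It was at 10.3, 10.0 and 8.73 CPM there and at 5.75, 9.01 and 7.80 CPM in the control cross, the highest mean of the 9 ovary groups for Ptx3 and, for Adamts1, the lowest. The 2 groups overlapped in Ptx3, and its log2 change of 0.37 (95% interval -0.07 to 0.81, edgeR adjusted p = 0.598) did not pass. In the paternal dose 1 cross Ptx3 was at 5.91, 6.17 and 5.28 CPM, with a log2 change of -0.37 (95% interval -0.81 to 0.07).

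Runx1 had higher levels in some exposed-parent crosses without passing the test. It was at 22.4, 39.3 and 30.5 CPM in the maternal dose 1 cross and at 21.5, 23.6 and 20.7 CPM in the control cross. Its log2 change was 0.48 (SE 0.16, unadjusted p = 0.0079, edgeR adjusted p = 0.353), and the cross held both the highest Runx1 library of the 27, B, and a library, A, within the control range. Without library A the log2 change was 0.66 and passed the test (edgeR adjusted p = 0.0191), and without library B it was 0.26 (edgeR adjusted p = 0.301). For the maternal dose 2 cross, at 28.4, 29.6 and 26.1 CPM, all libraries lay above the control cross, as in 6.8% of genes, with a log2 change of 0.36 (SE 0.16, edgeR adjusted p = 0.799). In the paternal dose 1 cross (31.7, 24.2 and 26.7 CPM) all libraries again lay above the control cross, as in 6.9% of genes, and the log2 change was 0.34 (SE 0.16, edgeR adjusted p = 0.995). The biparental dose 2 cross, at 24.9, 27.3 and 25.5 CPM, did not overlap with the control cross either, as in 7.94% of genes, with a log2 change of 0.25 (SE 0.16, edgeR adjusted p = 0.618). The paternal dose 2 cross, at 20.0, 25.0 and 21.2 CPM, stayed within reach of the control cross with a log2 change of 0.02 (95% interval -0.32 to 0.35).

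Runx2, Pgr and the ligand genes overlapped with the control cross in nearly all F2 comparisons. Runx2 had its lowest level in the maternal dose 1 cross at 3.55, 5.14 and 3.94 CPM, against 5.69, 4.03 and 4.83 CPM in the control cross. Pgr was at 1.65, 1.45 and 2.13 CPM in the biparental dose 2 cross, 3.33, 3.20 and 3.51 CPM in the paternal dose 1 cross and 4.03, 1.48 and 2.16 CPM in the control cross. The control libraries alone spanned all other F2 Pgr values but 1, 1.45 CPM. Btc was at 1.29, 1.58 and 1.03 CPM in the maternal dose 1 cross and at 2.12, 1.67 and 2.51 CPM in the paternal dose 1 cross. Ereg was at 0.440 to 2.05 CPM in the maternal dose 1 cross and at 0.993 to 1.03 CPM in the 3 libraries of the control cross. In the maternal dose 2 cross, at 1.11, 1.34 and 1.31 CPM, Ereg lay above the control cross, as in 6.8% of genes. Its log2 change was 0.32 (95% interval -0.62 to 1.25). The maternal dose 1 cross held both the lowest (C) and the highest (B) Ereg library of the 27.

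**Figure D3:**
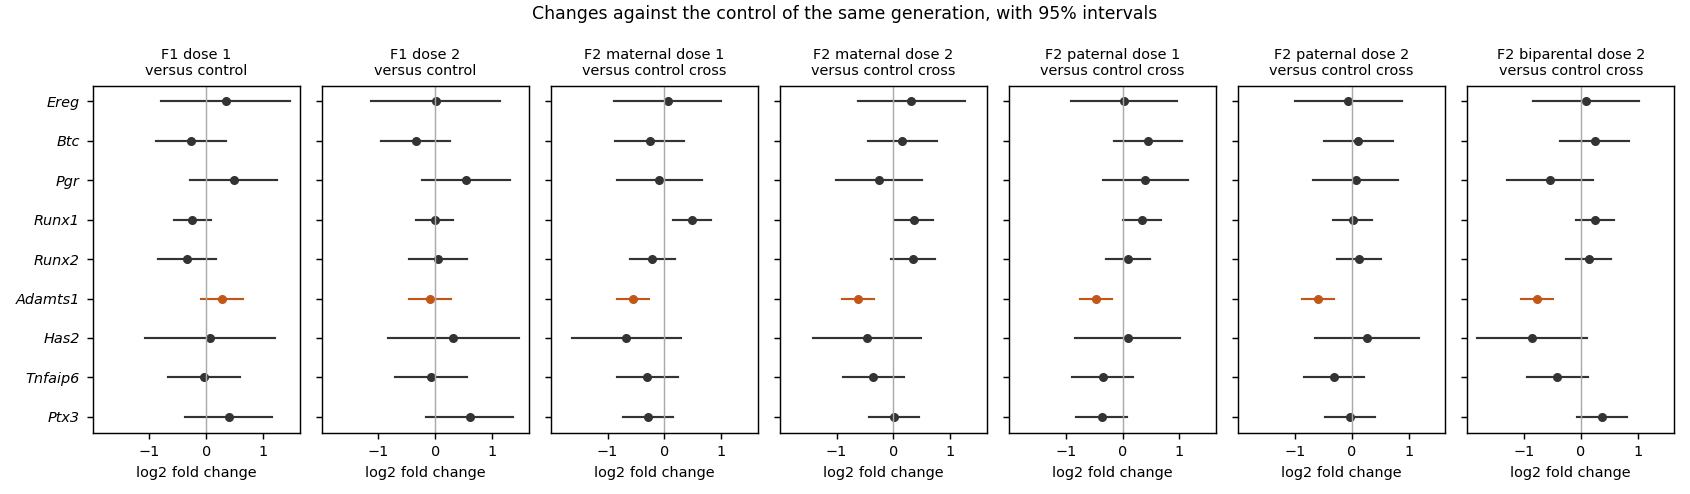
Log2 fold changes (horizontal axes) of the 9 tested members in the 7 ovary comparisons with a control, as points with 95% intervals from the edgeR fits and with a vertical line at 0. Adamts1, drawn in orange, lies below 0 with its whole interval in the 5 F2 comparisons, which share the 3 control cross libraries, and spans 0 in both F1 comparisons.

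Crosses of the same dose were also set against each other by the exposed parent. For dose 1, the maternal cross was compared with the paternal cross, and edgeR called 1 of 17400 genes (0.00575%), not a member. Btc had the lowest p of the members, at 1.03 to 1.58 CPM in the maternal and 1.67 to 2.51 CPM in the paternal cross, with a log2 change of -0.71 (SE 0.29, unadjusted p = 0.0265, edgeR adjusted p = 0.385). Its libraries did not overlap, as in 7.44% of genes lower in the maternal cross. For dose 2, edgeR called 0 genes (0%), where 414 genes had an unadjusted p below 0.05 and DESeq2 called 2. Runx1 was at 26.1 to 29.6 CPM in the maternal dose 2 and 20.0 to 25.0 CPM in the paternal dose 2 cross, a log2 change of 0.34 (SE 0.16, edgeR adjusted p = 0.9997) without overlap, as in 5.7% of genes. Runx2 did not overlap either, at 5.63 to 6.98 CPM in the maternal dose 2 and 4.81 to 5.52 CPM in the paternal dose 2 cross, with a log2 change of 0.22 (SE 0.18, edgeR adjusted p = 0.9997). Adamts1 had intervals that spanned 0 between parents, with log2 changes of -0.09 (95% interval -0.37 to 0.19) at dose 1 and -0.04 (-0.32 to 0.24) at dose 2.

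In testes no member was called in any of the 7 comparisons with a control. Adamts1, Tnfaip6, Runx1 and Runx2 had enough counts to be tested in F1, where edgeR called 0.021% of 19025 genes for dose 1 and 0.00526% for dose 2. In F2 Ptx3 could be tested as well, and edgeR called 0.0103% of 19379 genes for maternal dose 1, 0.372% for maternal dose 2, 0.201% for paternal dose 1, 0.00516% for paternal dose 2 and 0.0155% for biparental dose 2. In the biparental dose 2 cross the log2 change of Adamts1 in testis was 0.02 (95% interval -0.29 to 0.32), and the difference between the ovary and the testis changes was -0.84 (unadjusted p = 0.000762, edgeR adjusted p = 0.692), so a difference between tissues was not established. Tnfaip6 was at 0.496, 0.335 and 0.354 CPM in testes of the maternal dose 1 cross and 0.815, 0.663 and 1.09 CPM in the control cross. Its log2 change there was -1.11 (SE 0.38, unadjusted p = 0.00999, edgeR adjusted p = 0.730), on 13 to 42 counts per library. Runx2, the one member with a higher level in testis, was at 11.6 to 13.3 CPM in the paternal dose 2 cross and 8.36 to 11.1 CPM in the control cross (log2 change 0.30, SE 0.12, edgeR adjusted p = 0.946). Of the listed pathway and marker genes in testis, Kit, the receptor listed here as an oocyte marker, passed in 1 comparison, with a log2 change of 0.45 in the paternal dose 1 cross (SE 0.07, edgeR adjusted p = 0.0165).

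The unexposed ovaries of the 2 generations were set against each other, since the F2 control cross and the F1 controls should differ by generation and by anything else that separated the preparations. Over all 27 ovary libraries, 20.8% of 18334 genes were called, 10.4% in each direction, and 2 of the 10 members. Adamts1 was at 55.7, 71.5 and 58.2 CPM in the F2 control cross and 36.03, 56.9 and 41.1 CPM in F1 controls, and was higher by 0.46 on the log2 scale (SE 0.15, edgeR adjusted p = 0.0325). Runx2 was at 5.69, 4.03 and 4.83 CPM in the F2 control cross and 7.84, 8.58 and 7.44 CPM in F1 controls, a log2 change of -0.72 (SE 0.20, edgeR adjusted p = 0.0131). The Adamts1 libraries overlapped and the Runx2 libraries did not, as in 18.1% of genes lower in F2. Runx1 (log2 change -0.43, edgeR adjusted p = 0.060) and Btc (-0.71, edgeR adjusted p = 0.0766) were lower in F2 without passing.

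These calls rested on few libraries. Without F1 control A, the library with male germ cell markers, neither member passed (Adamts1 log2 change 0.34, edgeR adjusted p = 0.191, and Runx2 -0.72, 0.0586). Without F2 control cross B neither passed either (Adamts1 0.34, edgeR adjusted p = 0.183, and Runx2 -0.61, 0.0862), and without F1 control C Adamts1 did not pass (0.40, edgeR adjusted p = 0.097). DESeq2 called 4 members. Male germ cell markers were at 11.7 to 37.9 CPM in F2 ovaries and at 43.9 to 1118 CPM in F1 ovaries, and generation cannot be told apart from a difference in preparation. Of the other listed genes, the 8 of lowest p were the male germ cell markers Tnp2, Prm2, Tnp1, Prm1 and Acrv1, all lower in the F2 control cross, and Egfl7, Pparg and Timp1, all higher. Pparg, a nuclear receptor of the list of LH-induced genes, was at 74.5 CPM in the F2 control cross and 46.2 CPM in F1 controls (log2 change 0.69, SE 0.16, edgeR adjusted p = 0.00539). Egfr, the receptor of the ligands, was at 66.7 CPM in the F2 control cross and 97.9 CPM in F1 controls (log2 change -0.55, SE 0.17, edgeR adjusted p = 0.0266).

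The further genes of the pathway were followed in 5 lists: EGF receptors and other ligands (13 genes), matrix and prostaglandin genes (17), genes induced by LH or the progesterone receptor (32), RUNX partners (7) and genes known to fall after the surge (11). None of their tested genes passed in the 10 ovary comparisons of doses and crosses. In the list of induced genes, 19 of 30 tested genes had lower values than the control cross in maternal dose 1, 25 in maternal dose 2, 23 in paternal dose 1, 20 in paternal dose 2 and 20 in biparental dose 2. The median log2 changes were -0.16, -0.18, -0.18, -0.14 and -0.17 in the same order, against -0.0064, -0.0052, -0.0079, -0.0021 and 0.03 for all genes, and the 5 comparisons share the same 3 control libraries. The lowest edgeR adjusted p of any gene in it was 0.238, in the maternal dose 2 cross. In F1 the same list had 22 of 29 genes above control at dose 1 and 20 of 29 at dose 2, with median log2 changes of 0.11 and 0.088 against -0.0017 and -0.017 for all genes. The matrix and prostaglandin list and the RUNX partners had medians between -0.20 and 0.14 in the 10 comparisons. The lists were not tested against each other.

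Members were next compared library by library, after removing the group mean from each log2 CPM value, to see which of them varied together among ovaries of the same group. Of 45 pairs, 1 passed. Ptx3 and Pgr were opposed, with Pearson r = -0.78 (permutation p = 0.0003, adjusted over the 45 pairs 0.0135) and Spearman rho = -0.773 (permutation p = 0.00014, adjusted 0.0063) over 27 libraries. Leaving out the 2 libraries farthest from the median of Ptx3 gave r = -0.80. The relation had r = -0.82 within the 9 F1 libraries (permutation p = 0.0182) and r = -0.84 within the 18 F2 libraries (permutation p = 0.00498), though with 45 pairs tested neither generation alone gave a pair that passed adjustment. The 9 F1 libraries allow too few permutations within groups for a lone pair among 45 to pass, so the F1 outcome says nothing on this.

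The libraries show the opposition directly. F1 dose 2 A had the highest Pgr of all ovaries, 5.15 CPM, and 5.13 CPM Ptx3, while its group mates B and C had 2.08 and 2.79 CPM Pgr and 11.3 and 10.2 CPM Ptx3. In the maternal dose 1 cross, library B had 3.95 CPM Pgr and 4.62 CPM Ptx3, the lowest Ptx3 of the 27, while A and C had 1.84 and 1.49 CPM Pgr and 7.58 and 6.31 CPM Ptx3. In the control cross, A had 4.03 CPM Pgr with 5.75 CPM Ptx3, and B had 1.48 CPM Pgr with 9.01 CPM Ptx3. Other libraries went against the opposition. F1 dose 1 C, at 3.45 CPM Pgr, was slightly above its group mean in Pgr and had the highest Ptx3 of its group (9.14 CPM), and paternal dose 2 A was below its group mean in both. These values rest on counts of 59 to 222 for Pgr and 167 to 651 for Ptx3.

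A difference between libraries in the levels of long against short genes moved with both genes. What gives rise to this difference was not tested. The median deviation of 4824 genes with over 6 kb of exon minus that of 3439 genes with under 2 kb ran from -0.37 to 0.32 on the log2 scale over the 27 libraries, with exon lengths at hand for 96.6% of the genes. Pgr, with 8.55 kb of exon, followed it (r = 0.79, rho = 0.665, permutation p = 0.00195 and 0.00394, adjusted over the 10 members 0.0195 and 0.0394). Ptx3, with 2.68 kb, went against it (r = -0.58, rho = -0.612, permutation p = 0.00744 and 0.00853, adjusted 0.0372 and 0.0427). No other member passed, and the order did not follow exon length throughout. The longest, Runx1 at 12.0 kb, had r = 0.39, and Runx2 at 8.84 kb had r = 0.55 (permutation p adjusted 0.0635). The shortest, Areg at 1.215 kb and Tnfaip6 at 1.71 kb, had r = -0.11 and -0.30. Without the 2 libraries farthest from the median of this measure, control cross A and B, r was 0.69 for Pgr and -0.53 for Ptx3. With the measure removed from both genes, the r of Ptx3 and Pgr was -0.64. This measure was chosen after the pair had been seen, and control cross B and A lie at its ends. Adamts1, with 5.30 kb, had r = 0.13 with it over the 27 libraries (permutation p = 0.578, rho = 0.208, permutation p = 0.378). That r was 0.50 without control cross A and B, 0.71 within F1 and -0.08 within F2.

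**Figure D4:**
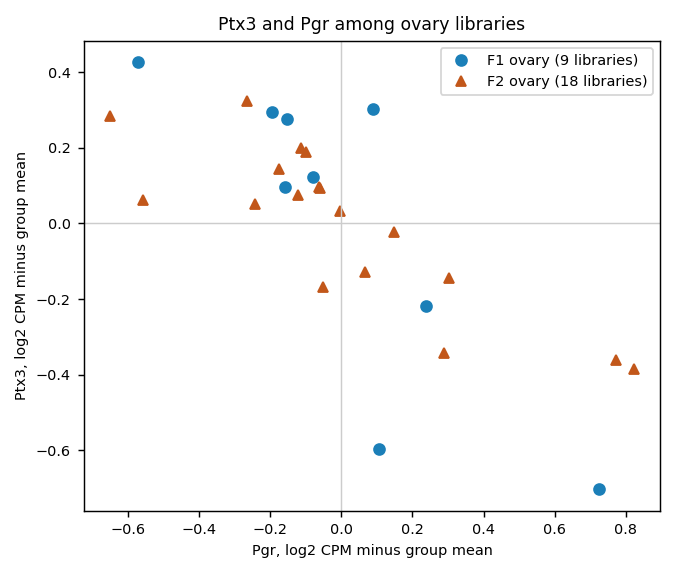
Deviation of Ptx3 (vertical axis) against deviation of Pgr (horizontal axis), both as log2 CPM minus the mean of the library's own group, in 9 F1 ovary libraries (blue circles) and 18 F2 ovary libraries (orange triangles). Libraries with more Pgr than their group mates mostly have less Ptx3, with r = -0.78 over the 27 libraries.

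The other pairs gave weaker relations. Ereg and Pgr had r = 0.63 (permutation p = 0.0033, adjusted 0.0743) and rho = 0.591 (permutation p = 0.00708, adjusted 0.159) over 27 libraries, and r = 0.46 without the 2 libraries farthest in Ereg, maternal dose 1 B and C. Areg and Ereg, which follow the same signal and lie side by side in the genome, had r = 0.53 (permutation p = 0.0253, adjusted 0.284) and rho = 0.546 (permutation p = 0.0182, adjusted 0.272), on Areg counts of 0 to 15. No pair of matrix genes passed, and their r had both signs. Adamts1 and Ptx3 had r = -0.37 (permutation p = 0.0662, adjusted 0.426) and rho = -0.352 (permutation p = 0.101, adjusted 0.649), and Has2 and Tnfaip6 had r = -0.35 (permutation p = 0.174, adjusted 0.745) and rho = -0.284 (permutation p = 0.237, adjusted 0.738). The r was 0.31 for Has2 and Ptx3, 0.16 for Adamts1 and Tnfaip6, 0.05 for Adamts1 and Has2, and -0.15 for Ptx3 and Tnfaip6.

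Genes with the most similar course over the 27 ovary libraries were ranked by Pearson r with the mean of the 10 members, each standardised within its generation. Among 18300 genes the nearest with a symbol were Ric8b (r = 0.734), Pign (0.700), Trps1 (0.700), Phkb (0.696), Wdr13 (0.692), Wdr37 (0.691), Gpr135 (0.687) and Mir22hg (0.686), with 1 predicted gene ranked above the last of them. The 27 libraries share groups and differ in the measure of long against short genes, and no test was made of these values.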

How the data were processed

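RNA was extracted with TRIZOL and libraries were made with a stranded mRNA ligation kit, per the labels' protocols. The authors deposited unnormalized counts for each gene and library, with 0 columns that could not be mapped to a sample. The submitters' processing notes name build mm39, DESeq2 1.32.0, featureCounts 2.0.3, TopHat2 2.1.1, SAMtools 1.13, Bowtie2 2.4.5, bcl2fastq 2.20 and FastQC 1.19. Not given in the sources used here are the annotation and the strand setting. Has2 has an antisense gene, Has2os, in the tables, so reads of that pair cannot be separated with certainty.

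Counts were fitted with edgeR 4.0.16 (R 4.3.3): TMM scaling, filterByExpr at a minimum count of 10, quasi-likelihood F tests, and Benjamini-Hochberg adjustment over all genes tested at 0.05, with 1 fit per tissue and generation. Unexposed ovary and testis were fitted together (12 libraries), and the 2 generations over all 27 ovary libraries. The SE was the log2 change divided by the root of F. CPM in the text were scaled over the 27 libraries of a tissue, except those of genes outside the member list in tests, which use the fit's own scaling. Correlations used log2 CPM with a prior count of 2 and 100000 permutations within groups. No exact permutation test was run on single genes, since 3 against 3 libraries reach 0.1 at best.

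Procedures were tested on simulated data with known changes. The simulated fold changes were larger than those of Adamts1 in F2 ovary and were set in genes of higher level than Areg, Ereg or Has2. Smaller changes and genes of low level were not covered. Between replicates of a group the chi-square per degree of freedom was at least 7.43, above counting error, so none was counted as a duplicate. The members, lists and comparisons were chosen with earlier results of these data known. All members are named in the comparisons. Of the other lists, genes that passed are named, up to 8 per comparison by p, and Ptgs2, Lhcgr, Egfr, Vcan, Cbfb and Cyp19a1 may be named anywhere. Alternatives were RLE size factors, no filter, only the 6 libraries compared, a block for the replicate letter, DESeq2 1.42.0 and leaving out each library. Fits without the libraries that stand apart, the pooled exposed-parent contrast and the gene length measure were added after the data were seen.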

Additional observations from a re-analysis of the deposited data

How the results depend on the processing

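Of 243 alternative counts of members called, 233 stayed within 1.5 times the value reported and 10 did not. The reported count was 0 in every comparison of doses and crosses, and each 0 that stayed 0 is among the 233. DESeq2 called 1 member, Adamts1, in each of maternal dose 1, maternal dose 2 and biparental dose 2 against the control cross, where edgeR called 0. In the pooled exposed-parent contrast DESeq2 called 1 and edgeR without the filter on low counts 1, again Adamts1, against 0. Leaving out 1 library at a time gave 0 to 1 members in maternal dose 1. For the F2 control cross against the F1 control, DESeq2 called 4 members against 2, and leaving out 1 library at a time gave 0 to 3. The 1 pair of members that varied together among all ovaries became 0 pairs within F1 and 0 within F2. Within F1 a lone pair could not have passed, as the permutations there are too few. Adamts1 was below the control cross under every alternative run for the 5 exposed crosses, between -0.87 and -0.35 on the log2 scale. The letters were not taken as pairs, since same-letter libraries had a median correlation of -0.22 in F1 ovary, 0.0048 in F2 ovary, 0.0084 in F1 testis and 0.041 in F2 testis, where the lowest pair was at -0.11. In F2 testis, though, 14 of 18 libraries matched best with 1 of their own letter (3 of 9 in F1 ovary, 4 of 18 in F2 ovary, 2 of 9 in F1 testis), a hint from the data. Fitting the replicate block changed no count of members called, and with it the pooled Adamts1 change was -0.60 (edgeR adjusted p = 0.299). Low counts limit Areg, at 0 to 15 counts per ovary library. They also left Areg, Ereg, Btc, Has2 and Pgr untested in testis, and Ptx3 untested in F1 testis.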

Other observations

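The 3 ovary libraries with the most Areg were above the median in Cyp19a1, the aromatase of granulosa cells, whose level is known to be high in large follicles before the LH surge. Biparental dose 2 C (0.356 CPM Areg) had 186 CPM Cyp19a1, the highest of the 27 ovaries, and 1.47 CPM Ptgs2, again the highest. F1 dose 2 A (0.255 CPM Areg) had 184 CPM Cyp19a1 and 0.464 CPM Ptgs2. F1 control C (0.263 CPM Areg) had 98.0 CPM Cyp19a1 and 0.702 CPM Ptgs2. Control cross B had 183 CPM Cyp19a1 with 0.136 CPM Areg and 0.292 CPM Ptgs2, and it carried the highest Lhcgr (443 CPM) and the highest Adamts1 (71.5 CPM). F1 dose 1 B went against this, with 98.5 CPM Cyp19a1 and 0.0209 CPM Areg, a single count. The median Cyp19a1 of the 27 ovaries was 42.1 CPM and the lowest value 8.60 CPM, in F1 dose 2 C. These libraries were picked out after their values had been seen, and no test was made of them.

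Maternal dose 1 B differed from its group mates in several members at once. It had the highest Ereg (2.05 CPM) and the highest Runx1 (39.3 CPM) of the 27 ovaries and the lowest Ptx3 (4.62 CPM), and its Vcan was at 223 CPM, against 122 and 83.8 CPM in libraries A and C of the same cross. Its Areg rested on 1 count. The measure of long against short genes was at 0.31 in this library on the log2 scale, against -0.13 in A and -0.18 in C, and its part in these values was not tested.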
